A study of Mus musculus with 5 samples.

Results

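Vascular endothelial growth factors and angiopoietins are secreted proteins that act on the endothelial cells of capillaries, and the genes described here are 5 such ligands (Vegfa, Vegfb, Vegfc, Angpt1 and Angpt2) and 5 of their receptors (Flt1, Kdr, Nrp1, Tek and Tie1). They were taken by gene name from the deposited table, in which each has 1 row, and so make up 10 of 17015 genes. The values are FPKM (fragments per kilobase of transcript, scaled for library size) from total RNA of whole tibialis anterior (TA), a fast-twitch muscle of the lower hindlimb. The mice were male, sedentary and 8 weeks old. There were 3 libraries from WT control mice, which were Cre-negative littermates, and 2 libraries labelled skmNrip1-/-. Both groups came from a Nrip1 fl/fl line on C57BL/6J that was crossed with Cre mice on C57BL/6JN, and only the skmNrip1-/- mice carried the myogenin-Cre transgene, which removes the floxed exon 4 of Nrip1 from skeletal muscle. Nrip1 encodes RIP140, a nuclear receptor coregulator. Myogenin-Cre is active in muscle fibers and their differentiating precursors, so the vascular cells that express the receptors are not a target of this Cre.

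In muscle, VEGF-A and VEGF-B are made largely by the fibers, and VEGF-A released by a fiber binds VEGFR1 (Flt1), VEGFR2 (Kdr) and the co-receptor neuropilin 1 (Nrp1) on the neighbouring capillary. VEGFR2 carries most of the mitogenic signal, whereas VEGFR1 binds VEGF-A and VEGF-B tightly and in its soluble form acts as a trap. Angiopoietin 1, from mural and other mesenchymal cells, activates TIE2 (Tek) and stabilises vessels, angiopoietin 2, from endothelial cells, can oppose it, and TIE1 is an endothelial co-receptor of TIE2. The comparison asked how these ligands and receptors differ between the muscles labelled as lacking RIP140 and control muscles.

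Nrip1, the targeted gene, had a higher value, not a lower one, in the libraries labelled skmNrip1-/-. Its FPKM was 4.64 to 7.69 in the WT control libraries, and 25.3 and 22.5 in those labelled skmNrip1-/- (a log2 fold change of 1.94 with an SE, or standard error, of 0.21, limma adjusted p = 0.0261). This call rested on the spread of few libraries, since the adjusted p from limma was 0.142 to 0.204 without WT control replicate 3 or either library labelled skmNrip1-/-, at fold changes of 1.85 to 2.02 on the log2 scale. The table gives 1 value per gene, so exon 4 cannot be read on its own. By the study's account this exon holds both the start and the stop codon. Annotated coding transcripts of Nrip1 run from 432 to 7868 nt, and FPKM is scaled by transcript length. The value is therefore not a measure of intact Nrip1, and every direction below rests on the labels. The tissue label was checked against marker genes. Skeletal fiber genes summed to between 66614 and 90229 FPKM in the 5 libraries, and the 20 endothelial markers, none of which was at 0 in all libraries, summed to between 403 and 477 FPKM. The mtDNA-encoded share of the FPKM sum was 45.4% to 50.7% in WT control and 58.6% to 60.9% in the libraries labelled skmNrip1-/-. Depth relative to WT control replicate 1, estimated from the steps between low values, was 0.812 to 1.096.

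None of the 10 genes was called in the comparison by a fold of 1.2 or more with an adjusted p no greater than 0.05, a rule that called 0.453% of the 12148 genes tested by limma on log2(FPKM + 0.1). Before adjustment, Vegfa, Vegfc and Angpt1 were higher in the libraries labelled skmNrip1-/- at a p of 0.05 or less, 3 of 10 beside 6.57% of all genes tested, and 0 of 10 were lower at that p beside 5.33% of all genes tested. For the same 3 ligands, both libraries labelled skmNrip1-/- lay above every WT control library, an arrangement seen in 15.8% of genes tested. Vegfb and Flt1 had the reverse arrangement, which 14.4% of genes tested had, and the other 5 genes overlapped between groups. The median log2 fold change was 0.35 over the 5 ligands and 0.05 over the 5 receptors, beside -0.00054 over all genes tested. Here and below, fold changes are the libraries labelled skmNrip1-/- over WT control.

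**Figure D1:**
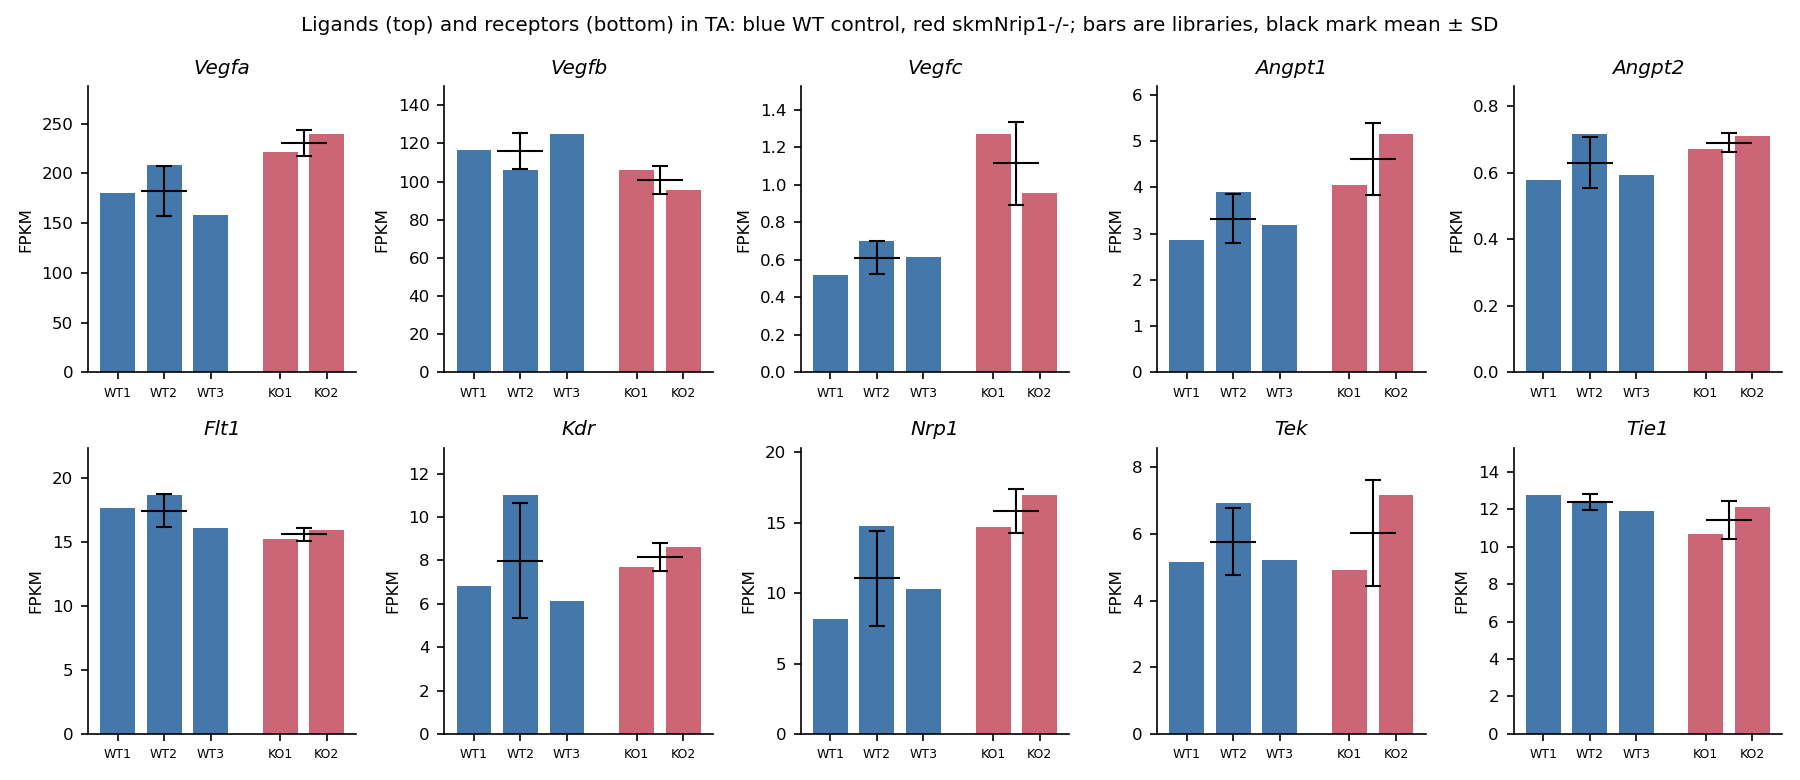
FPKM of the 5 ligands (top row) and 5 receptors (bottom row) in each TA library, with WT control (WT1 to WT3) in blue, the libraries labelled skmNrip1-/- (KO1 and KO2) in red, and black marks for the group mean ± SD. Each panel has its own axis from 0. The red bars stand above all blue bars for Vegfa, Vegfc and Angpt1, and below them for Vegfb and Flt1, each by a small gap.

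The proximal promoters of Vegfa and Flt1 are shown because this ligand and its high-affinity receptor had groups apart in opposite directions, for Flt1 by a small gap. Each is the 250 bases before the RefSeq start on GRCm38.p6, read on the minus strand, for Vegfa chr17:46032378-46032627 and for Flt1 chr5:147726012-147726261. Capitals mark matches on either strand to GGGCGG (a GC box), AGGAAG (an ETS-type core), GCGTG and ACGTG (cores of hypoxia response elements) and AAGGTCA (a nuclear receptor half-site of the estrogen-related receptors).
Vegfa: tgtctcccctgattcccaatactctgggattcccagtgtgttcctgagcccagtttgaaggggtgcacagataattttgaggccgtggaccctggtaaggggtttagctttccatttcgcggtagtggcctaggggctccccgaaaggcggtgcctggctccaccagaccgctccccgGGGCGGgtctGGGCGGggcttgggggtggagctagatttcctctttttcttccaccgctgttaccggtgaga
Flt1: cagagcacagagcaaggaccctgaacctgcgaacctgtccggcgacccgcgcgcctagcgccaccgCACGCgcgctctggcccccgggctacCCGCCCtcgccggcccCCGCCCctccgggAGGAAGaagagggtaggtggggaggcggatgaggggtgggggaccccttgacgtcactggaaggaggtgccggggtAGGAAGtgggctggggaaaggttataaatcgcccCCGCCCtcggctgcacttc

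The Vegfa window held 2 GC boxes and no match to the other motifs, and the Flt1 window held 3 GC boxes, 2 ETS-type cores and 1 GCGTG. Of all 32851 windows of this length, 32.7% held a GC box, 29.5% AGGAAG, 28.2% GCGTG, 16.6% ACGTG and 4.08% AAGGTCA. A window was found for 8 of the 10 genes, and Angpt1 and Angpt2 had no entry. GC boxes were also matched in Vegfb (4), Kdr (2), Vegfc (2) and Nrp1 (1), and not in Tek or Tie1. AGGAAG was matched in Flt1, Nrp1 and Tie1, AAGGTCA in Nrp1 alone of the 8, and ACGTG in none of the 8. Besides Flt1, GCGTG was matched in Kdr (2), Vegfb (2) and Nrp1 (1). Such matches describe letters in a short window and are not evidence of binding.

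Vegfa (ENSMUSG00000023951, GRCm38 chromosome 17, 46016993 to 46032369, minus strand), the main mitogen for endothelial cells, was the most abundant of the 10 genes. Its FPKM was 180, 208 and 158 in the WT control libraries, and 221 and 240 in the libraries labelled skmNrip1-/-. Both of the latter exceeded the highest control, though the gap between the groups (208 to 221) was smaller than the range among controls. The means were 182 ± 25.2 (SD, n = 3) and 231 ± 13.0 (SD, n = 2), a 1.27-fold ratio. On the log2 scale the groups differed by 0.35 (SE 0.14, 95% interval 0.01 to 0.69, limma adjusted p = 0.406). The exact two-sided permutation p, taken as double the smaller tail over 10 splits, was 0.2. That is the smallest this test allows, and groups without overlap always reach it. Vegfa has 8 annotated coding transcripts of 513 to 3451 nt, and a value per gene does not separate the isoforms that differ in binding to matrix and to neuropilin 1.

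Vegfb (ENSMUSG00000024962, chromosome 19, 6982473 to 6987651, minus strand) encodes a ligand of VEGFR1 and neuropilin 1 and followed Vegfa in abundance. Its FPKM was 117, 106.3 and 125 in WT control and 106.1 and 95.6 in the libraries labelled skmNrip1-/-. The groups were separated only by the distance between 106.3 and 106.1, which is far inside the spread of either group. This was a log2 fold change of -0.20 (SE 0.12, 95% interval -0.48 to 0.08, limma adjusted p = 0.572). Vegfb transcripts have the highest GC content of the 10 genes, 62.6%, and the libraries differed in their trend on GC content. At a GC content of 60%, the deviation from the mean of each gene was 0.12, -0.04 and 0.10 on the log2 scale in WT control and -0.07 and -0.10 in the libraries labelled skmNrip1-/-. With this trend removed from each library, an adjustment added after the data were seen, the difference in Vegfb was 0.0021 on the log2 scale and the groups overlapped.

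Vegfc (ENSMUSG00000031520, chromosome 8, 54077606 to 54187096, plus strand), a ligand of VEGFR3 that drives lymphatic growth, was, with Angpt2, the lowest of the 10 genes in WT control. Its FPKM was 0.521, 0.698 and 0.614 in WT control and 1.27 and 0.957 in the libraries labelled skmNrip1-/-. Both of the latter were above every control. By limma its log2 fold change was 0.77 (SE 0.25, 95% interval 0.17 to 1.36, limma adjusted p = 0.305) on the main scale, with a pseudocount of 0.1 FPKM. With a pseudocount of 1 FPKM it was 0.39, below Nrp1 at 0.52, and without replicate 1 labelled skmNrip1-/- it was 0.58. These values corresponded to an estimated 55, 81 and 65 fragments in WT control and 109 and 98 in the libraries labelled skmNrip1-/-, with a counting error of 9.56% to 13.5%. This error does not include the variation between mice. Lymphatic markers gave no parallel, since 3 of the 6 were too low to test and 1 of the 3 tested was above 0. The 3 were Ccl21a, at a log2 fold change of -0.42, Lyve1, at -0.35, and Pdpn, at 0.02.

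Angpt1 (ENSMUSG00000022309, chromosome 15, 42424723 to 42676977, minus strand), the agonist of TIE2, had an FPKM of 2.87, 3.91 and 3.19 in WT control and 4.06 and 5.16 in the libraries labelled skmNrip1-/-. The groups did not overlap, but WT control replicate 2 came close to the lower of the other libraries. The log2 fold change was 0.46 (SE 0.18, 95% interval 0.03 to 0.90, limma adjusted p = 0.390). Of its exonic sequence, 737 nt are shared with the antisense gene Gm17473, and since the kit is not stated to keep strand, reads from either could not be told apart there. Angpt1 had the lowest transcript GC content of the 10 genes, 39.3%, and after GC adjustment its difference was 0.34 with the groups still apart.

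Angpt2 (ENSMUSG00000031465, chromosome 8, 18690263 to 18741562, minus strand), the context-dependent antagonist of TIE2, was low in every library. Its FPKM was 0.579, 0.718 and 0.595 in WT control and 0.672 and 0.711 in the libraries labelled skmNrip1-/-, and the latter fell within the control range. On the log2 scale the groups differed by 0.12 (SE 0.24, 95% interval -0.46 to 0.70, limma adjusted p = 0.895), an interval that leaves room for a difference in either direction. The estimated fragments were 88 to 127 per library.

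Among the receptors, Flt1 (ENSMUSG00000029648, chromosome 5, 147561604 to 147726011, minus strand) was the most abundant. Its FPKM was 17.6, 18.7 and 16.1 in WT control and 15.2 and 16.0 in the libraries labelled skmNrip1-/-. The groups were separated only by the distance between 16.09 and 15.96, which is far inside the SD of the controls (1.29 FPKM). This was a log2 fold change of -0.16 (SE 0.11, 95% interval -0.42 to 0.10, limma adjusted p = 0.646). After GC adjustment it was -0.17 with the groups still apart. The full-length and soluble forms of VEGFR1 share most of their exons and are not separated here.

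Kdr (ENSMUSG00000062960, chromosome 5, 75932827 to 75978458, minus strand), which encodes the main signalling receptor for VEGF-A, had an FPKM of 6.84, 11.0 and 6.12 in WT control and 7.68 and 8.60 in the libraries labelled skmNrip1-/-. WT control replicate 2 was the highest of the 5 libraries, and the other controls were the lowest. By limma its log2 fold change was 0.07 (SE 0.25, 95% interval -0.52 to 0.67, limma adjusted p = 0.944), and it ranged from -0.09 to 0.32 when each library was left out in turn.

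Nrp1 (ENSMUSG00000025810, chromosome 8, 128358604 to 128503363, plus strand), the co-receptor for VEGF-A and class 3 semaphorins, had an FPKM of 8.13, 14.76 and 10.3 in WT control and 14.73 and 17.0 in the libraries labelled skmNrip1-/-. The overlap came from WT control replicate 2 alone, which was level with the lower of the other libraries. The log2 fold change was 0.55 (SE 0.24, 95% interval -0.02 to 1.13, limma adjusted p = 0.446). Without WT control replicate 2 it was 0.78 (limma adjusted p = 0.139), still not called.

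Tek (ENSMUSG00000006386, chromosome 4, 94739289 to 94874976, plus strand), the angiopoietin receptor, had an FPKM of 5.17, 6.92 and 5.21 in WT control and 4.91 and 7.16 in the libraries labelled skmNrip1-/-. The latter held both the lowest and the highest of the 5 values. On the log2 scale the groups differed by 0.05 (SE 0.21, 95% interval -0.44 to 0.55, limma adjusted p = 0.951). Tie1 (ENSMUSG00000033191, chromosome 4, 118471191 to 118490061, minus strand) varied least among the controls. It was at 12.7, 12.4 and 11.9 FPKM in WT control and 10.7 and 12.1 FPKM in the other group. Its log2 fold change was -0.12 (SE 0.11, 95% interval -0.38 to 0.15, limma adjusted p = 0.749), and the groups overlapped. Its transcript GC content was 57.6%, and after GC adjustment the difference was -0.016.

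**Figure D2:**
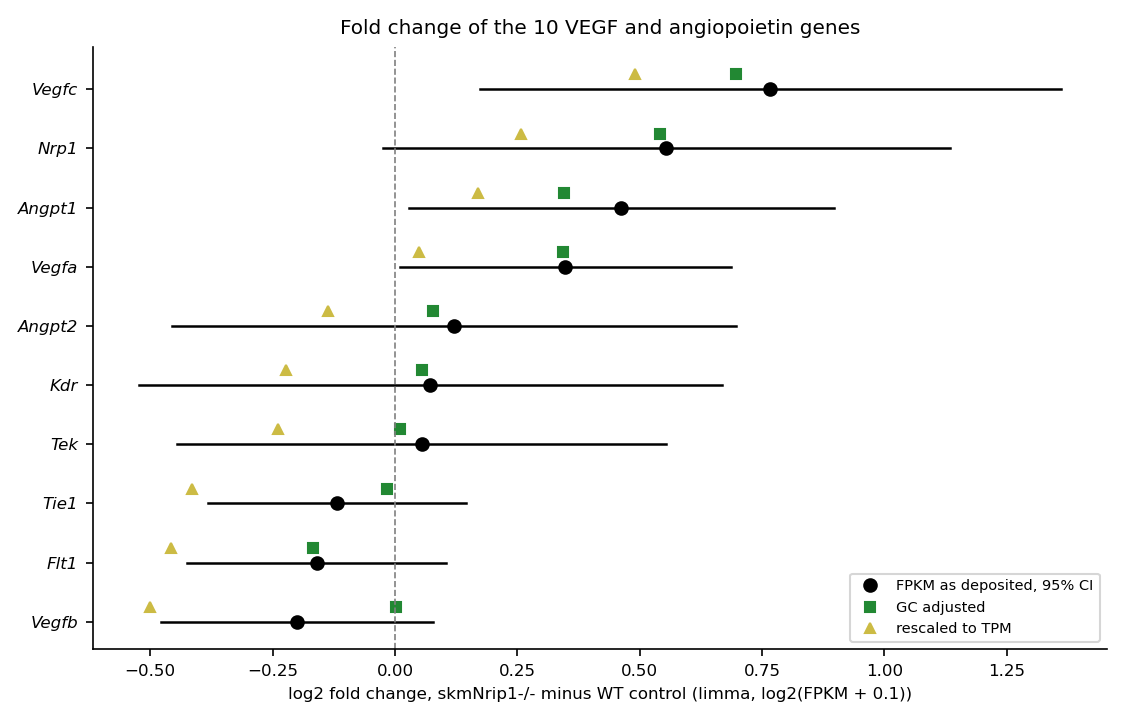
Log2 fold change of each gene, libraries labelled skmNrip1-/- minus WT control, from limma on log2(FPKM + 0.1). Black points with lines give the deposited FPKM with the 95% interval, green squares the values after GC adjustment, and yellow triangles those after rescaling to TPM. The intervals of Vegfc, Angpt1 and Vegfa lie above 0 on the deposited scale, GC adjustment moves Vegfb from -0.20 to 0.0021, and TPM moves every gene downward.

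The scale matters for these small differences. Dividing each library by its FPKM sum, which gives TPM, shifted the all-gene median to -0.29 on the log2 scale, and on that scale Vegfa was at 0.05, Vegfc at 0.49, Angpt1 at 0.17 and Nrp1 at 0.26, whereas Flt1 was at -0.46 and Vegfb at -0.50. Relative to the shifted median, Vegfa was at 0.34, Vegfc at 0.78, Angpt1 at 0.46, Nrp1 at 0.55, Flt1 at -0.17 and Vegfb at -0.21. Kdr, Angpt2 and Tek changed sign on the TPM scale, to -0.22, -0.14 and -0.24. Relative to the shifted median they were at 0.07, 0.15 and 0.05. Dividing instead by the sum over nuclear genes moved the all-gene median the other way, to 0.07. Vegfa was then at 0.42, Nrp1 at 0.63 and Kdr at 0.15, whereas Vegfb was at -0.13 and Flt1 at -0.08.

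By level in WT control, Vegfa and Vegfb stood in percentiles 96.9 and 95.2 of the genes tested and made up 82.0% to 84.7% of the summed FPKM of the 10 genes in the 5 libraries. Below them came Flt1 at 17.5 ± 1.29, Tie1 at 12.4 ± 0.415, Nrp1 at 11.1 ± 3.38, Kdr at 7.99 ± 2.64 and Tek at 5.77 ± 1.001 FPKM (SD, n = 3). Angpt1 followed at 3.32 ± 0.532, Angpt2 at 0.631 ± 0.076 and Vegfc at 0.611 ± 0.088 FPKM (SD, n = 3). The order of Tie1 and Nrp1, of Nrp1 and Kdr, of Kdr and Tek, and of Angpt2 and Vegfc was not resolved, since the control libraries of these neighbours overlapped. The fiber-made ligands therefore stood well above every receptor, and the angiopoietins below the receptor they bind.

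Ratios within a library do not depend on its overall scale. Vegfa exceeded Vegfb by 1.55, 1.96 and 1.26 times in WT control and by 2.09 and 2.51 times in the libraries labelled skmNrip1-/-, so the groups did not overlap (exact two-sided permutation p = 0.2, the smallest possible). This ratio was chosen after its values were seen. Vegfa made up 60.1%, 65.7% and 55.3% of the FPKM of the VEGF-family ligands in WT control and 67.1% and 71.0% in the libraries labelled skmNrip1-/-. After GC adjustment the log2 ratio of Vegfa to Vegfb was 0.34 higher in the libraries labelled skmNrip1-/-, and the groups still did not overlap.

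Setting fiber-made ligand against endothelial receptor gave different answers for different pairs. The ratio of Vegfa to Kdr was 26.4, 18.9 and 25.8 in WT control and 28.8 and 27.9 in the libraries labelled skmNrip1-/-, without overlap. The ratio of Vegfb to Flt1 was 6.61, 5.70 and 7.77 in WT control and 6.96 and 5.99 in the others, with overlap. Over Vegfa and Vegfb together, set against the mean of the 5 receptors on the log2 scale and centred on WT control, the ligand minus receptor difference was 0.13, -0.23 and 0.10 in WT control and 0.12 and -0.13 in the libraries labelled skmNrip1-/-. The groups overlapped, and their means differed by -0.01 beside an SD of 0.20 among controls. The receptor mean leaned on Nrp1, at a log2 fold change of 0.55, beside -0.16 to 0.07 for the other receptors. Vegfa and Vegfb lay on opposite sides of their control means, so their average hides the difference between them.

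The angiopoietins were set against each other and against their receptor. The ratio of Angpt1 to Tek was 0.555, 0.564 and 0.612 in WT control and 0.826 and 0.720 in the libraries labelled skmNrip1-/-. The ratio of Angpt1, the agonist, to Angpt2 was 4.95, 5.44 and 5.36 in WT control and 6.04 and 7.25 in the others. Neither ratio overlapped between groups (exact two-sided permutation p = 0.2 for each, the smallest possible), and both remained apart after GC adjustment. The ratio of Flt1 to Kdr, also chosen after its values were seen, overlapped, at 2.58, 1.70 and 2.63 in WT control and 1.98 and 1.86 in the libraries labelled skmNrip1-/-.

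**Figure D3:**
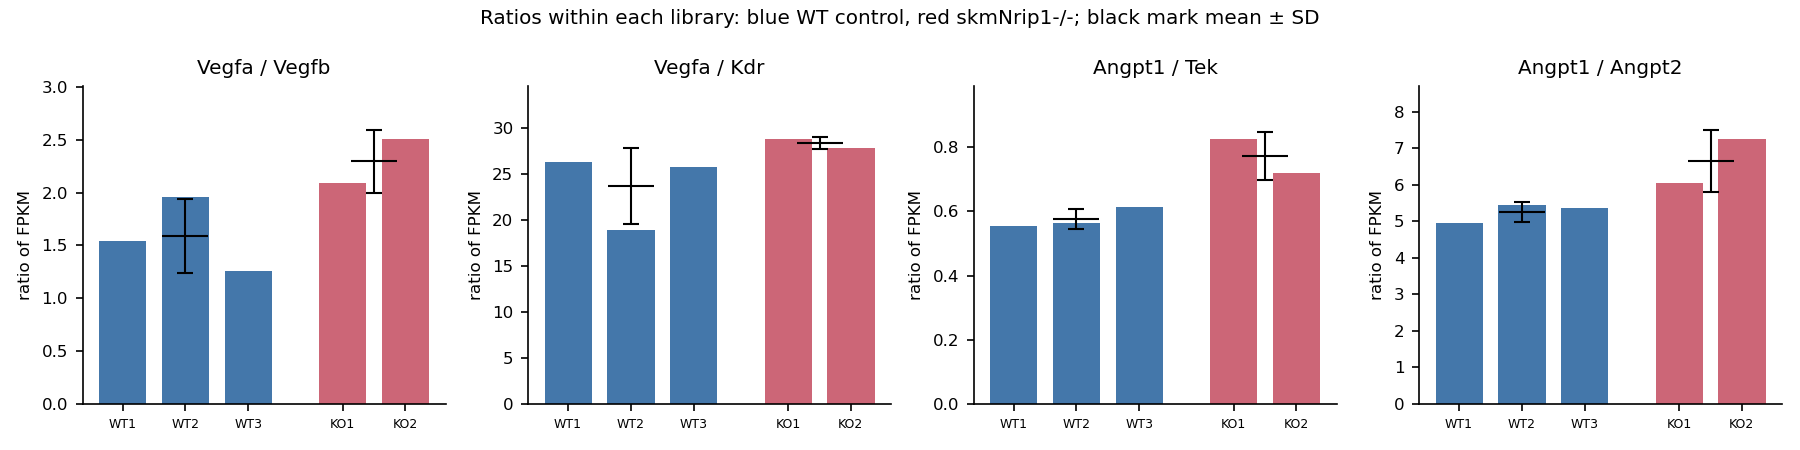
Ratios of FPKM within each TA library for Vegfa to Vegfb, Vegfa to Kdr, Angpt1 to Tek and Angpt1 to Angpt2, with WT control in blue, the libraries labelled skmNrip1-/- in red, and black marks for the group mean ± SD. In all 4 panels both red bars exceed every blue bar, by the narrowest relative margins for Vegfa to Kdr (27.9 against 26.4) and Vegfa to Vegfb (2.09 against 1.96). The ratios of Vegfb to Flt1 and of Flt1 to Kdr, which overlapped between groups, are not shown. Vegfa and Angpt1, the numerators shown, each lay above every control on their own.

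The genes also varied together within groups. WT control replicate 2 was the highest control for 8 of the 10 genes, all but Vegfb and Tie1, whereas it was the highest control for 34.6% of all genes tested. Of the libraries labelled skmNrip1-/-, replicate 2 was the higher for 8 of the 10, all but Vegfb and Vegfc, beside 48.4% of all genes tested. The mean deviation of the 5 receptors from their control means was -0.13, 0.27 and -0.14 on the log2 scale in WT control and -0.03 and 0.19 in the libraries labelled skmNrip1-/-. The median deviation of the 20 endothelial markers was 0.06, 0.02 and -0.05 in WT control and -0.19 and -0.10 in the others. Among the pathway lists described below, the pattern of the 10 genes recurred in the tip cell and sprouting genes, with median deviations of -0.0083, 0.22 and -0.17 in WT control and -0.21 and 0.11 in the libraries labelled skmNrip1-/-. It recurred also in the regulators of Vegfa, at -0.30, 0.24 and 0.05 in WT control and 0.14 and 0.22 in the others. The same order of libraries was seen, with smaller deviations among controls, in VEGF receptor signalling, VEGF co-factors and modulators, and other angiogenic ligands. The angiogenic genes named from EDL, which include Vegfa and Tie1, had it too. It was not seen in the TIE pathway, the hypoxia response genes or the rest of the family.

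**Figure D4:**
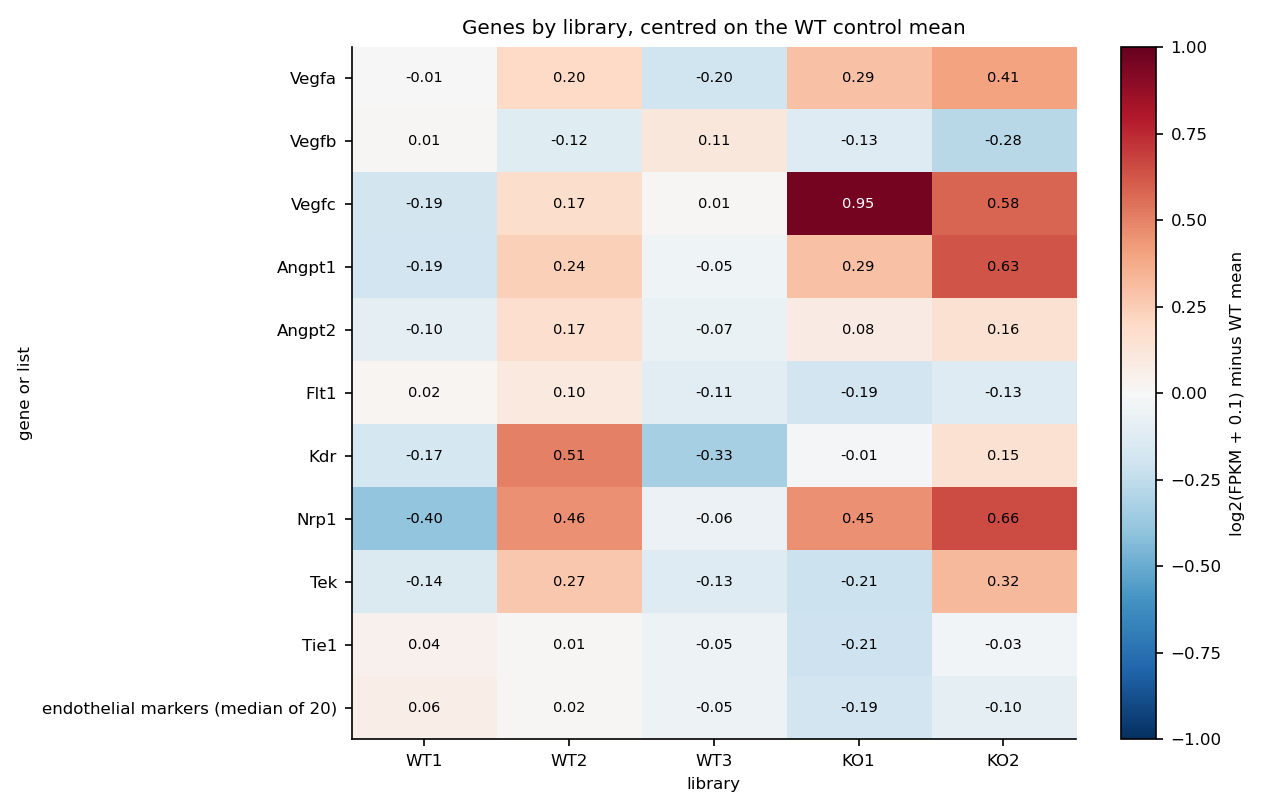
Deviation of log2(FPKM + 0.1) from the WT control mean for each gene (rows) in each TA library (columns), with red above and blue below the control mean, and the median over 20 endothelial markers in the last row. WT2 and KO2 are red for Kdr, Nrp1, Tek, Angpt1 and Angpt2, whereas the endothelial median stays between -0.19 and 0.06.

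Endothelial markers leaned low. All 20 were tested and none was called, with 4 above 0 and 16 below, and 5 had both libraries labelled skmNrip1-/- below every control, beside 49.9% above 0 and 14.4% below every control among all genes tested. Their median log2 fold change was -0.14, from Cldn5, a tight junction protein, at -0.32 to Clec14a at 0.07. Their summed FPKM was 410 to 477 in WT control and 403 to 414 in the libraries labelled skmNrip1-/-. FPKM is a relative measure. In whole muscle, fewer endothelial cells, less RNA per endothelial cell and more RNA from other cells cannot be told apart. The 10 mural markers, among them the pericyte gene Rgs5 at 0.07 and Notch3 at -0.31, had a median of -0.09, with summed FPKM of 196 to 220 and 196 to 208 that overlapped. Of the skeletal fiber markers, 6 of 9 were below 0, from Acta1 at -0.40 to Mb, which encodes myoglobin, at 0.73. All 5 red blood cell genes were above 0, with a median of 0.51 and a sum of 511 to 764 FPKM in WT control and 827 to 996 FPKM in the libraries labelled skmNrip1-/-. The part of blood, endothelial or mtDNA content in the differences of the 10 genes was not tested.

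The medians of 4 other cell type lists were 0.13 for fibroblasts (from Pi16 at -0.25 to Col1a1 at 0.18), 0.06 for macrophages (C1qa at -0.33 to Mrc1 at 0.39), 0.07 for adipocytes (Plin1 at -0.36 to Cfd at 0.15) and 0.08 for satellite cells (Myf5 at -0.22 and Vcam1 at 0.39). Each of these 4 medians was below 0 on the TPM scale. Relative to the shifted all-gene median they stayed above 0 there, at 0.12, 0.06, 0.10 and 0.11 in the same order. None of their genes was called, and no marker was at 0 in all libraries.

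The rest of the ligand and receptor family was low. Vegfd, a ligand of VEGFR3, had an FPKM of 1.54, 1.35 and 1.29 in WT control and 0.882 and 1.16 in the libraries labelled skmNrip1-/-, and its log2 fold change was -0.42 (SE 0.20, limma adjusted p = 0.482). Pgf, which encodes placental growth factor, a VEGFR1 ligand, was at 0.815, 0.477 and 0.807 FPKM in WT control and 0.394 and 0.446 FPKM in the others, with a log2 fold change of -0.59 (SE 0.31, limma adjusted p = 0.532). For both, the libraries labelled skmNrip1-/- lay below every control, and neither was called. The other ligands of the VEGF family therefore stood on both sides, with Vegfa and Vegfc above their controls and Vegfb, Vegfd and Pgf below, Vegfb only without GC adjustment. Flt4, which encodes VEGFR3, was at 0.01 and Nrp2 at 0.08 on the log2 scale, and both overlapped. Angpt4 was under the minimum of 0.5 FPKM, at 0.031 to 0.090 FPKM, and was not tested.

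Signalling genes downstream of the receptors showed no common direction. Of the 20 VEGF receptor signalling genes, 19 were tested and none was called, with 11 above 0 and 8 below and a median of 0.01. At a p of 0.05 or less before adjustment, Cdc42, a small GTPase, was at 0.31, and Pxn, which encodes paxillin, and Hspb1, a target of p38 signalling, were at -0.34 and -0.49, and Src had the lowest value, -0.59. Of 9 tested TIE pathway genes, 4 were above 0 and 5 below, with a median of -0.01, from Itga5 at -0.35 to the adaptor Grb14, whose FPKM was 16.7, 25.9 and 19.8 in WT control and 48.6 and 41.1 in the libraries labelled skmNrip1-/-. Grb14 differed by 1.12 on the log2 scale (SE 0.20, limma adjusted p = 0.0999) and was called without WT control replicate 2 (1.29, limma adjusted p = 0.0475). Grb14 also acts on the insulin receptor.

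Of 12 tested VEGF co-factors and modulators, 5 were above 0 and 7 below, with a median of -0.0089, from Sema3f at -0.17 to Plxnd1, a semaphorin receptor of endothelial cells, at 0.67 (limma adjusted p = 0.292). Of 11 tested tip cell and sprouting genes, 5 were above 0 and 6 below, with a median of -0.13 that was 0.05 without WT control replicate 2 and 0.11 without replicate 1 labelled skmNrip1-/-. The tip cell gene Esm1 was at 0.89 and the chemokine receptor Cxcr4 at 0.46, both at a p of 0.05 or less before adjustment, whereas the Notch ligand Dll1 was at -0.48. Neither list had a called gene.

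The regulators of Vegfa in muscle had no called gene. Of 14 tested, 10 were above 0 and 4 below, with a median of 0.19 on the deposited scale, -0.10 after rescaling to TPM (0.19 relative to the shifted median of all genes) and 0.15 after GC adjustment. Without WT control replicate 1, 7 were above 0 and 7 below, with a median of -0.017. The estrogen-related receptor genes Esrra and Esrrb were at 0.36 and 0.63, and the coactivator Ppargc1b at 0.60, whereas Ppargc1a, the coactivator best known for inducing Vegfa, was at -0.03. Esrra, for example, was at 81.3, 90.4 and 83.1 FPKM in WT control and 107 and 111 FPKM in the libraries labelled skmNrip1-/- (limma adjusted p = 0.254). Of the prolyl hydroxylases that target HIF for degradation, Egln1 was at 0.40 (limma adjusted p = 0.236) and Egln2 at -0.46 (limma adjusted p = 0.293). Hif1a and Epas1, the HIF alpha subunits, were at 0.20 and 0.11. Egln1, Esrra, Ppargc1b and Egln2 passed a p of 0.05 before adjustment.

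Hypoxia response genes other than Vegfa stood on the other side. Of 11 tested, 1 was above 0 and 10 below, with a median of -0.14, from Ddit4 at -0.48 to Pdk1 at 0.25. None was called on the deposited scale. Ddit4 was called on the TPM scale (-0.77, limma adjusted p = 0.0471), where the median of all genes was itself at -0.29. Among other angiogenic ligands, 7 of 12 tested were above 0 and 5 below, with a median of 0.04. Fgfbp1, which releases FGF from the matrix, was at 1.41, 0.866 and 1.16 FPKM in WT control and 2.89 and 2.36 FPKM in the libraries labelled skmNrip1-/- (log2 fold change 1.14, limma adjusted p = 0.141). Fgf2 was at -0.39.

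The study also named 7 angiogenic genes as increased in RIP140-deficient EDL muscle of another line, with Cre active in striated muscle. This list includes Vegfa and Tie1. Those EDL mice were older than the mice here, and the study tested counts. In TA all 7 were tested and none was called, with 6 above 0 and a median of 0.35 on the deposited scale, and with 4 above 0 and a median of 0.05 on the TPM scale (0.34 relative to the shifted all-gene median). For 4 of them both libraries labelled skmNrip1-/- lay above every control, beside 15.8% of all genes tested, and Tie1, at -0.12, was the one below 0.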

How the data were processed

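Total RNA of whole TA was sequenced as paired-end reads. The authors quantified reads with Salmon 1.10.2 on mm10, summarised them to genes with tximport, tested counts with DESeq2 1.44.0, and deposited FPKM per gene and library. How the FPKM were computed, and from which annotation release, is not given in the sources used here. The 2 deposited columns of the authors' own comparison (log2 fold change, adjusted p) were not used. Whether the deposited replicates were separate mice rests on the study's text, and same-numbered libraries of the groups came from different mice.

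Libraries were grouped by their labels. The study's legend gives 3 mice per group, and 2 libraries labelled skmNrip1-/- were analysed here. The 12148 genes whose mean reached 0.5 FPKM entered limma 3.58.1 under R 4.3.3 (functions lmFit and eBayes, with trend) on log2(FPKM + 0.1), all 5 libraries, no covariates, with Benjamini-Hochberg adjustment over all genes tested, and calls needed a fold of 1.2 or more with an adjusted p no greater than 0.05. The log scale understates changes of low genes. The step was tested on simulated data. Single values used exact two-sided permutation over 10 splits, with the smaller tail doubled (smallest p 0.2). Tables and figures used Python 3.11.15, pandas 2.3.3, numpy 2.4.6, scipy 1.17.1 and matplotlib 3.10.9. Positions and transcript GC content came from GENCODE M21 (GRCm38), which held 16996 of the 17015 gene IDs, and promoter windows from RefSeq on GRCm38.p6.

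Absolute depth is unknown. Fragment numbers were taken from the step size among low values of 2559 single-transcript genes, with an assumed fragment length of 325 nt, and their errors cover counting only.

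The genes, gene lists and tests were chosen with earlier results of these data known. All 10 genes, Nrip1, the rest of the family and, of each other list, called genes or else the highest and lowest were named. The result of 1 marker list is not reported here. Other genes named from the lists, and the ratios of Vegfa to Vegfb and Flt1 to Kdr, were chosen after their values were seen. Alternatives were other pseudocounts, minimums, scalings, eBayes settings and call thresholds, a replicate block, and each library left out. Among the scalings, that by the median ratio of a library to the mean of each gene had the same factor, 1.00171, in every library. It therefore repeated the main result. GC adjustment (lowess, span 0.3, per library) was added after seeing the data.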

Additional observations from a re-analysis of the deposited data

How the results depend on the processing

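The count of called genes among the 10 was 0 under every alternative run, including no fold threshold and an adjusted p of 0.1 or less, and their lowest adjusted p from limma over the alternatives was 0.0896 (Flt1, TPM). Vegfa, Vegfc, Nrp1 and Angpt1 stayed above 0 and Flt1 and Tie1 below 0 in each alternative that tested them; Vegfc and Angpt2 were not tested at a minimum of 1 FPKM. Rescaling to TPM turned Kdr to -0.22, Angpt2 to -0.14 and Tek to -0.24, and GC adjustment turned Vegfb to 0.0021. Relative to the shifted all-gene median, Kdr, Angpt2 and Tek stayed above 0 on the TPM scale. With the replicate number as a block, Kdr was at -0.094 and Tek at -0.011. Over all genes 18 were called higher and 4 lower with the block, beside 45 and 10 without it. WT control replicate 3 has no same-numbered partner, so the fold changes with the block equal those without that library. The groups share only 2 replicate numbers, from different mice. The deviations of same-numbered libraries correlated at 0.06 and 0.10. With 2 libraries labelled skmNrip1-/-, their deviations are mirror images, so these correlations cannot show whether the numbers pair the samples. Leaving out each library in turn gave 0.25 to 0.45 for Vegfa, 0.58 to 0.95 for Vegfc, 0.29 to 0.63 for Angpt1, 0.36 to 0.78 for Nrp1, -0.094 to 0.32 for Kdr, -0.21 to 0.32 for Tek and -0.21 to -0.028 for Tie1, and 1 to 4 of the 10 genes at a p of 0.05 or less before adjustment. Called genes in the lists numbered 0, except 1 on the TPM scale (Ddit4) and 0 to 1 when libraries were left out (Grb14, without WT control replicate 2). The cause was not tested. The median changed sign in at least 1 alternative for the VEGF receptor signalling, TIE pathway, VEGF co-factor, tip cell, regulator, other ligand, lymphatic, fibroblast, macrophage, adipocyte and satellite cell lists and for the rest of the family, and in none for the endothelial, mural, skeletal fiber, red blood cell, hypoxia and EDL lists. Nrip1 had an adjusted p from limma of 0.0769 without the trend and 0.128 with the replicate block. Over all genes, TPM called 30 higher and 63 lower, leaving out a library called 6 to 51 higher and 2 to 15 lower, and eBayes without the trend called 22 higher and 3 lower. The small number of libraries, and for Vegfc and Angpt2 the low number of fragments, limit the precision.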

Other observations

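Car9, a hypoxia-inducible carbonic anhydrase chosen after its values were seen, was under the minimum for testing. Its FPKM was 0.296, 0.607 and 0.562 in WT control and 0.148 and 0.077 in the libraries labelled skmNrip1-/-. The groups did not overlap, an arrangement that 14.4% of genes tested had in this direction. Fragments and counting error were not estimated for Car9.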
